A study of Homo sapiens with 20 samples.

Results

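Interferon-stimulated genes are the genes that cells switch on when interferon binds its receptors, and the heavy and light chains of MHC class I with their peptide-supply machinery belong to the same inducible programme. The set described here held 40 of them, out of 22221 genes tested on the arrays. The genes were listed by symbol under a rule that used no measured value, but were chosen with earlier results of these data known. By role they were 4 signalling factors, 16 antiviral effectors, 3 genes of the ISG15 system, 8 other interferon-induced proteins and 9 genes of the class I pathway. A named probe was found for 39 of them, and 38 were tested. No probe matched IFI27, which was not analysed here, and RSAD2 (viperin, an inhibitor of viral replication) exceeded the background flag on 1 of 20 arrays and was not tested.

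Expression was measured in HepaRG cells, a human hepatoma line of bipotent liver progenitors that can become hepatocyte-like and biliary-like, with one-colour Agilent arrays on 4 independent experiments per condition. All conditions shared a medium with serum, insulin and hydrocortisone, a glucocorticoid. D4 and D15 were cells at day 4 (progenitors) and day 15 after seeding without DMSO, D30 − DMSO was day 30 without DMSO, D30 + DMSO was day 30 after culture from day 15 onwards with 2% DMSO, and D34 ± DMSO was D30 + DMSO cells kept for a further 4 days without it. HepaRG is 1 line, and the labels name neither an interferon nor a virus among the treatments.

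Type I and type III interferons signal through JAK kinases to a complex that holds STAT2 and IRF9 and binds the interferon-stimulated response element in target promoters, whereas interferon gamma acts at gamma-activated sites. The products block viral entry, degrade or sequester viral RNA, or tag proteins with the ubiquitin-like ISG15. In hepatocytes the same programme is known from infections with hepatitis viruses, and MHC class I, which presents intracellular peptides to T cells, is normally modest in liver parenchyma and rises with interferon.

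The response element was looked for in the reference promoters as a description. The rule did not use the element, but genes listed as interferon-stimulated are its known targets. A higher share than over all promoters was therefore foreseeable and says nothing of these cells. Promoters from RefSeq (GRCh38.p14, 250 bases before to 50 bases after each start) were found for 32 of the 40 genes, as 42 promoters. These include IFI27 and RSAD2, which were not tested, and overlapping windows of IFI27 and of IFI44 that hold the same matches. The core of the element, GAAA then any pair of bases then GAAA (on the other strand TTTC, any pair, TTTC), occurred in 27 of the 42 (64.3%; 23 genes), against 1255 of 35116 promoters in all (3.57%). A longer core, the same followed by CT (preceded by AG on the other strand), occurred in 16 (38.1%) against 96 (0.273%), and every longer match contains the shorter one. The gamma-activated motif TTCNNNGAA, which reads the same on both strands, occurred in 10 (23.8%) against 2689 (7.66%). No match to the shorter core lay in the windows of HLA-B, HLA-C, STAT2, IRF1, IRF9, OAS1, IFI35, PSMB9 or XAF1. The last 180 bases before the start are shown for 6 genes on which the results turn, read 5′ to 3′ along the gene, with matches to the shorter core or its reverse complement in capitals.
ISG20 (chr15:88638836-88639015, plus strand): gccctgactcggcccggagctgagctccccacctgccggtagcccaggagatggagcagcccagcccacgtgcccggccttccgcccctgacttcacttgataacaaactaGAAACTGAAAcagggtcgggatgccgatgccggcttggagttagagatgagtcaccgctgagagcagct
OAS3 (chr12:112938294-112938473, plus strand): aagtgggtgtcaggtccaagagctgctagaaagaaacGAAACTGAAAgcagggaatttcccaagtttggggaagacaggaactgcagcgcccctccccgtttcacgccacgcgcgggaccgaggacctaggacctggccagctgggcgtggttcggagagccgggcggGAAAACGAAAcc
GBP1 (chr1:89065209-89065388, minus strand): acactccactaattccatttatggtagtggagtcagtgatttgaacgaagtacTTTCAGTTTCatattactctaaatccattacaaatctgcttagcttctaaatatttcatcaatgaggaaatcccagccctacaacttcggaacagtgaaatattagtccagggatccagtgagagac
HERC5 (chr4:88456939-88457118, plus strand): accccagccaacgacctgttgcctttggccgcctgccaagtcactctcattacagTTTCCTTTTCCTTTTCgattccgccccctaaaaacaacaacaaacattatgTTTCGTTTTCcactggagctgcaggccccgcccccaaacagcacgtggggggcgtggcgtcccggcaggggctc
B2M (chr15:44711337-44711516, plus strand): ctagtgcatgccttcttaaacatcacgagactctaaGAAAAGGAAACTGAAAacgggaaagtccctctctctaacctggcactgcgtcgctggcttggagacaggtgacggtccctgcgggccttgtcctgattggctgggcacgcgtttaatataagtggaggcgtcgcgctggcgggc
HLA-F (chr6:29723254-29723433, plus strand): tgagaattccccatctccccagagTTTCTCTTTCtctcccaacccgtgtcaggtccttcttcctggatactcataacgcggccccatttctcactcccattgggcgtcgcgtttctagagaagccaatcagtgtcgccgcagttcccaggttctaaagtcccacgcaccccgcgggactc
The windows of ISG20, GBP1 and HLA-F held 1 match each, that of OAS3 2 separate matches, that of B2M 2 overlapping matches and that of HERC5 3, of which the first pair overlap. A match is a description of letters and was not tested as a binding site. IRF7 and IFIT2 have no entry in the promoter table.

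Levels are given as log2 signal relative to the 75th percentile of the array, so that 0 marks that percentile, and differences are log2 fold changes from limma fitted over all 20 arrays. A gene was called when its Benjamini-Hochberg adjusted p, over all genes tested, was below 0.005 and its fold change above 2. Each level belongs to 1 probe, so levels of different genes were not compared with each other. The RNA was from whole cultures, in which fewer cells of a type and less RNA per cell cannot be told apart. The arrays lay on 4 slides read in 2 scan sessions, their 75th percentiles ranged from 407 to 766 intensity units, and 61.1% to 74.2% of spots were well above background. The number of arrays limits the precision. All D30 + DMSO arrays lay on slides 3 and 4. Differences within a slide rest on few arrays. For D15 against D4 they compare 1 array with 1 on slides 2 and 3, and 2 with 1 on slide 4. For D30 + DMSO against D30 − DMSO they compare 2 with 1 on slides 3 and 4. After removal they compare 2 with 2 on slide 3 and 1 with 2 on slide 4.

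Of the 38 genes tested, 6 (15.8%) were called in at least 1 of the 5 comparisons, namely IRF7, ISG20, GBP1, HERC5, OAS3 and IFIT2, against 14.8% of all genes. The other 32 were never called. From D4 to D15, 2 rose and 2 fell, or 5.26% in each direction, against 5.76% of all genes higher and 3.67% lower. From D15 to D30 − DMSO limma called none, against 0.0045% of all genes higher and 0% lower. With DMSO (D30 + DMSO against D30 − DMSO) limma again called none, against 1.71% higher and 4.15% lower. After DMSO removal (D34 ± DMSO against D30 + DMSO) 1 rose and 1 fell, or 2.63% each, against 4.91% higher and 2.09% lower. In D34 ± DMSO against D30 − DMSO none was called, against 1.3% higher and 0.212% lower. Over the 5 conditions, an F-test with a Bonferroni p below 0.001 and a spread of condition means above 3-fold kept 1 gene, ISG20, against 5.31% of all genes.

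**Figure D1:**
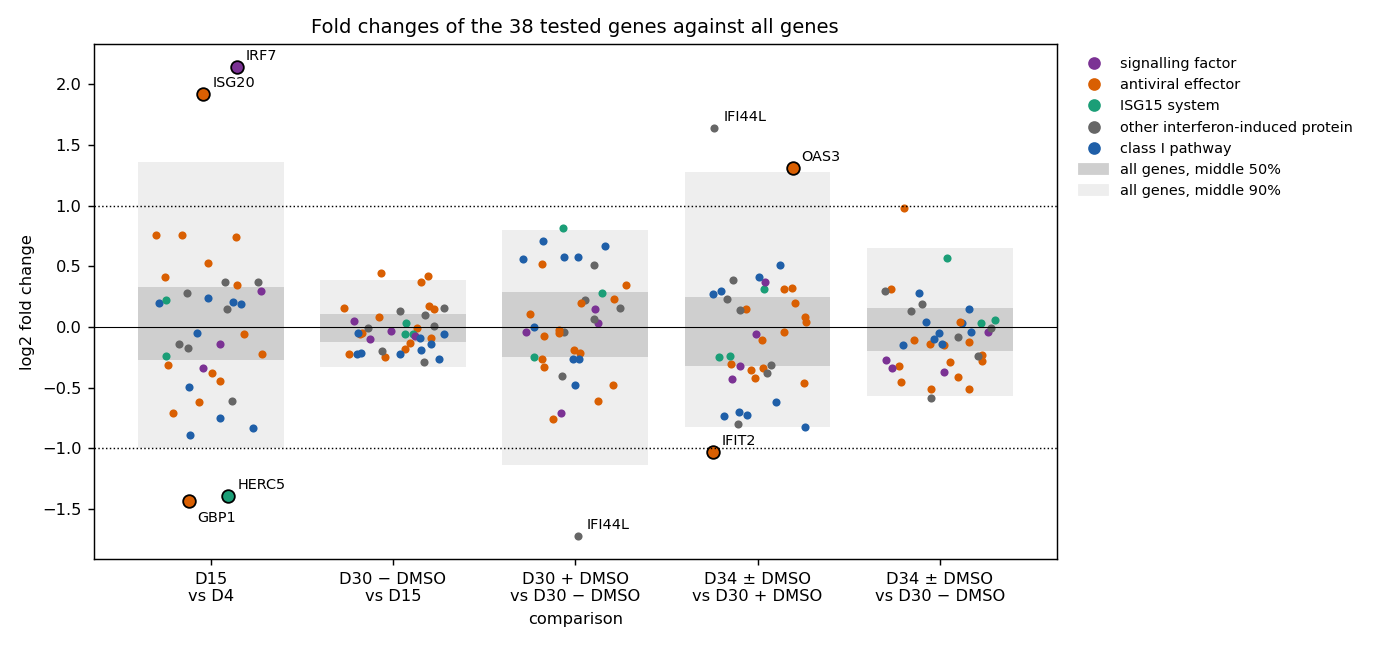
Log2 fold change of each of the 38 genes (points, coloured by role) in the 5 comparisons, over the middle 50% and middle 90% of all 22221 genes (grey bars); ringed points were called and dotted lines mark 2-fold. Most points lie inside the grey bars in every comparison, with IRF7 and ISG20 above and GBP1 and HERC5 below them at D15.

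Where limma called none, the methods' t-test also called 0 in each. The counts at an unadjusted p below 0.05 were 1 of 38 from D15 to D30 − DMSO, 12 with DMSO, and 6 in D34 ± DMSO against D30 − DMSO. The share of all genes at that limit was not computed. At a limma adjusted p below 0.05 with no fold limit, 5 were higher and 4 lower with DMSO, against 18.3% of all genes in either direction. From D15 to D30 − DMSO there were 0 higher and 0 lower, against 0.045%. In D34 ± DMSO against D30 − DMSO there were 1 higher and 0 lower, against 4.68%. At D15 the means of 18 genes were higher and 20 lower than at D4, with a median difference of -0.06 against 0.04 over all genes. With DMSO 19 were higher and 19 lower, with a median of -0.01 against 0.04. After its removal 17 were higher and 21 lower, with a median of -0.09 against -0.07. D30 + DMSO arrays enter both the addition and the removal comparison, so that opposite signs in the pair are not independent of each other.

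**Figure D2:**
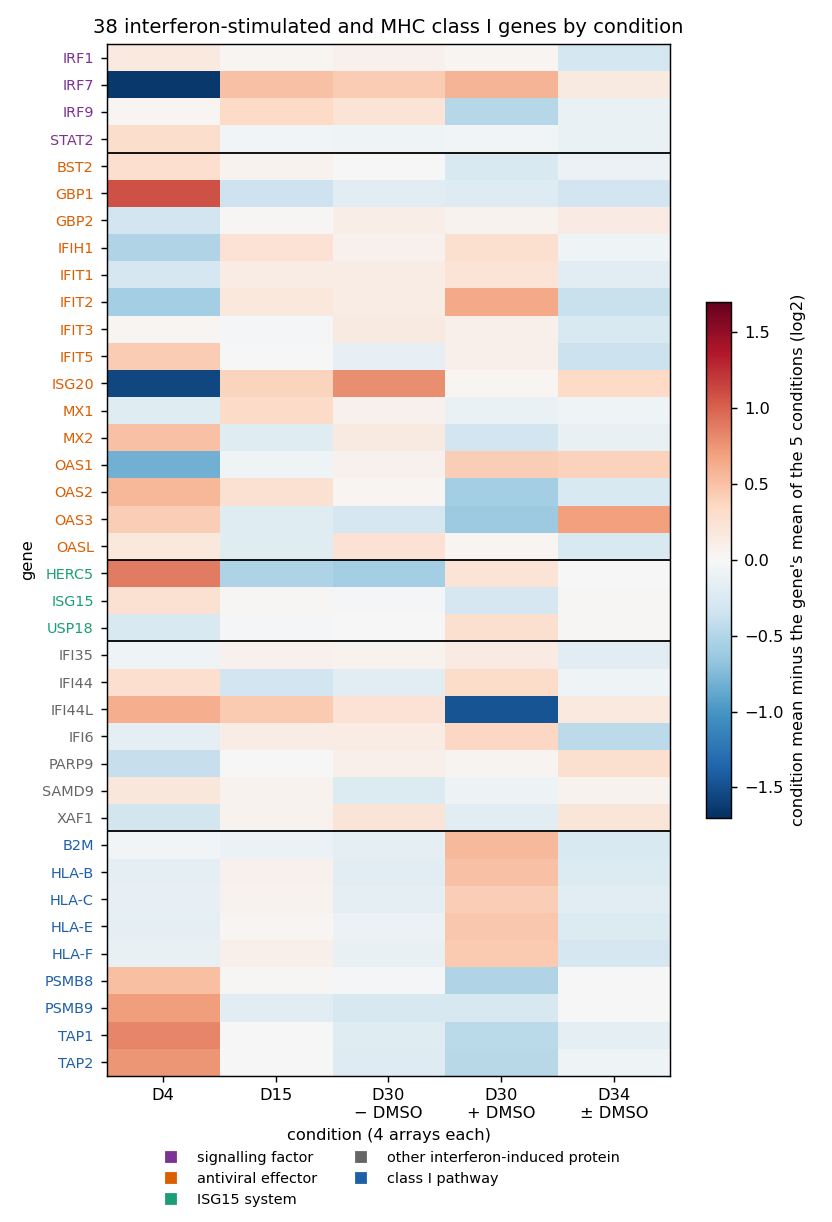
Mean level of each of the 38 genes at the 5 conditions, as log2 difference from the mean of its own 5 condition means (colour, blue lower and red higher; 4 arrays per condition), grouped by role. IRF7 and ISG20 are lowest at D4, the TAP and PSMB genes are highest at D4, and B2M and the HLA genes are highest at D30 + DMSO.

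Among the signalling factors, IRF7, the transcription factor that amplifies interferon production after viral sensing, had the largest fold change of the 38 genes at D15. IRF7 read -0.73, -1.81, -1.55 and -0.82 at D4, 1.42, 0.4, 0.85 and 0.98 at D15, 1.1, 0.8, 0.96 and 0.51 at D30 − DMSO, 1.19, 0.89, 1.18 and 0.7 at D30 + DMSO, and 0.96, 0.33, 0.49 and 0.49 at D34 ± DMSO. All 4 D4 arrays lay below all arrays of the other conditions, which overlapped one another. IRF7 rose by 2.14 ± 0.25 (SE, 4 arrays against 4), or 4.41-fold, from D4 to D15 (limma adjusted p = 2.85e-06), and the differences within slides 2, 3 and 4 were 2.15, 1.95 and 1.73. The other 3 factors were not called in any comparison. STAT2, a signal transducer of the type I response, differed from D4 by -0.34 at D15 (adjusted p = 0.269) and IRF9, its DNA-binding partner, by 0.30 (0.577). IRF1, a factor downstream of interferon gamma, differed by -0.14 (0.677). With DMSO, IRF9 differed by -0.71 ± 0.30, all 4 arrays below the D30 − DMSO arrays (adjusted p = 0.124).

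None of the tested ligand and receptor genes upstream of these factors was called, and most ligands were not tested. Of 21 interferon genes listed, 17 had a probe and 2 (IFNA4 and IFNL2) were tested, with differences between -0.11 and 0.21. IFNB1 and IFNG were well above background on 0 of 20 arrays, whereas IFNA21, on 12, and IFNL1, on 10, were not tested either. Of 15 genes for receptors and JAK-STAT components, 14 were tested and 0 called, against 14.8% of all genes called in at least 1 comparison. IRF2 was well above background on 10 arrays only. IFNAR1, the type I receptor subunit, was 0.44 higher with DMSO (adjusted p = 0.00963) and differed by -0.51 after removal (0.00317), below the 2-fold limit both times. SOCS1, a feedback inhibitor of JAK kinases, differed by -0.58 with DMSO (0.0289) and by 1 after removal (0.000406). SOCS3, an inhibitor of the same family, differed by -0.67 at D15 (0.0373), -0.83 with DMSO (0.0143) and 0.68 after removal (0.0364). Differences for IFNAR2, IFNGR1, IFNGR2, IFNLR1, IL10RB, JAK1, JAK2, TYK2, STAT3 and IRF3 lay between -0.53 (IFNGR2) and 0.37 (JAK2), and 1 of these reached an adjusted p below 0.05, IFNLR1 at -0.41 after removal (0.0236).

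Among the antiviral effectors 15 of 16 were tested, and 1 rose and 1 fell at D15. ISG20, an exonuclease that degrades single-stranded RNA, passed both the pairwise and the F-test thresholds. ISG20 read -0.37, -0.08, -0.32 and -0.62 at D4, 1.55, 1.67, 1.51 and 1.54 at D15, 2.14, 2.11, 2.08 and 1.62 at D30 − DMSO, 1.73, 1.46, 1.18 and 0.55 at D30 + DMSO, and 1.79, 1.23, 1.75 and 1.38 at D34 ± DMSO. All D4 arrays lay below all others. ISG20 rose by 1.92 ± 0.21 (SE), or 3.77-fold, at D15 (limma adjusted p = 1.45e-06), by 1.92, 2 and 2.14 within slides 2, 3 and 4. With DMSO it differed by -0.76 ± 0.21 (adjusted p = 0.0155), the arrays of both conditions overlapping. Its condition means spanned 5.06-fold in limma's F-test across all genes (Bonferroni adjusted p = 0.000453). Without 1 array, that p ranged from 2.51e-05 to 0.00673 and stayed below the threshold for 5 of the 20 arrays left out, D30 − DMSO replicate 4, D30 + DMSO replicates 1, 2 and 4, and D34 ± DMSO replicate 2, and was above it without any one of the other 15.

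GBP1, an interferon-induced GTPase that attacks pathogen membranes, moved the other way. GBP1 read -0.4, -1, -1.6 and 0.06 at D4, -2.31, -2.27, -2.44 and -1.65 at D15, -2.19, -2.1, -2.13 and -1.63 at D30 − DMSO, -2.26, -1.88, -1.89 and -2.09 at D30 + DMSO, and -2.2, -2.13, -2.53 and -1.7 at D34 ± DMSO. The D4 arrays were the highest, above all arrays of the later conditions, and had the wider spread. GBP1 fell by 1.43 ± 0.28 (SE) on the log2 scale, a 2.7-fold decrease, at D15 (limma adjusted p = 0.000793), and the differences within slides 2, 3 and 4 were -1.91, -0.68 and -2.1. GBP2, of the same family, differed by 0.35 (adjusted p = 0.22).

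OAS3, one of the synthetases whose product activates RNase L, was lowest at D30 + DMSO and highest at D34 ± DMSO. OAS3 read -2.18, -2.82, -2.48 and -1.95 at D4, -2.8, -3.15, -2.98 and -2.98 at D15, -3.09, -2.97, -3.14 and -3.06 at D30 − DMSO, -3.23, -3.36, -3.36 and -3.64 at D30 + DMSO, and -2.32, -2.08, -2.3 and -1.64 at D34 ± DMSO. The 4 D30 + DMSO arrays were below all other arrays of the series. OAS3 rose by 1.31 ± 0.18 (SE), or 2.48-fold, after DMSO removal (limma adjusted p = 2.57e-05), with 0.98 and 1.86 within slides 3 and 4. Against D30 − DMSO, D34 ± DMSO was 0.98 ± 0.18 higher (1.97-fold, adjusted p = 0.00203), just under the 2-fold limit. That difference passed with slide as a block (1.04, adjusted p = 0.000579) and without D34 ± DMSO replicate 1 (1.06) or replicate 3 (1.05). A second OAS3 probe was well above background on 1 D4 array and 1 D30 − DMSO array only.

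The neighbouring family members differed in pattern from OAS3. OAS1 was 0.74 higher at D15 (adjusted p = 0.0324) and did not differ by more than 0.35 later. OASL differed by at most 0.51 in any comparison. OAS2 read -1.41, -1.62, -1.58 and -1.54 at D4, -2.05, -1.65, -1.84 and -1.84 at D15, -2.09, -2.11, -1.86 and -2.22 at D30 − DMSO, -2.35, -2.47, -2.75 and -3.16 at D30 + DMSO, and -2.28, -2.55, -2.32 and -2.29 at D34 ± DMSO. OAS2 was lowest at D30 + DMSO, differing by -0.61 ± 0.15 from D30 − DMSO (adjusted p = 0.00783), a gap that its other probes did not share, as they differed by -0.01 and -0.28.

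IFIT2, a protein that binds viral RNA, was highest at D30 + DMSO and lower after the removal. IFIT2 read -0.84, -0.28, -0.3 and -1.03 at D4, 0.25, 0.28, 0.17 and -0.1 at D15, 0.14, 0.34, 0.25 and -0.32 at D30 − DMSO, 0.7, 0.79, 0.77 and 0.22 at D30 + DMSO, and -0.09, -0.4, -0.19 and -0.94 at D34 ± DMSO. All 4 D34 ± DMSO arrays lay below the 4 D30 + DMSO arrays. IFIT2 fell by 1.03 ± 0.22 (SE) on the log2 scale, a 2.04-fold decrease (limma adjusted p = 0.00175), with -0.89 and -1.43 within slides 3 and 4. The call was close to the fold limit and was lost without D30 + DMSO replicate 1 (-1), 2 (-0.97) or 3 (-0.98) or D34 ± DMSO replicate 2 (-1.03) or 4 (-0.85). A second probe differed by -1.02 (adjusted p = 0.00909). The other IFIT genes, IFIT1, IFIT3 and IFIT5, differed by -0.42, -0.34 and -0.46 in this comparison, the last with an adjusted p of 0.0411. Of the remaining effectors, IFIH1 (MDA5, a sensor of viral RNA) was 0.76 higher at D15 (0.00544), whereas MX1, MX2, BST2 (tetherin) and GBP2 reached no adjusted p below 0.05 in any comparison.

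**Figure D3:**
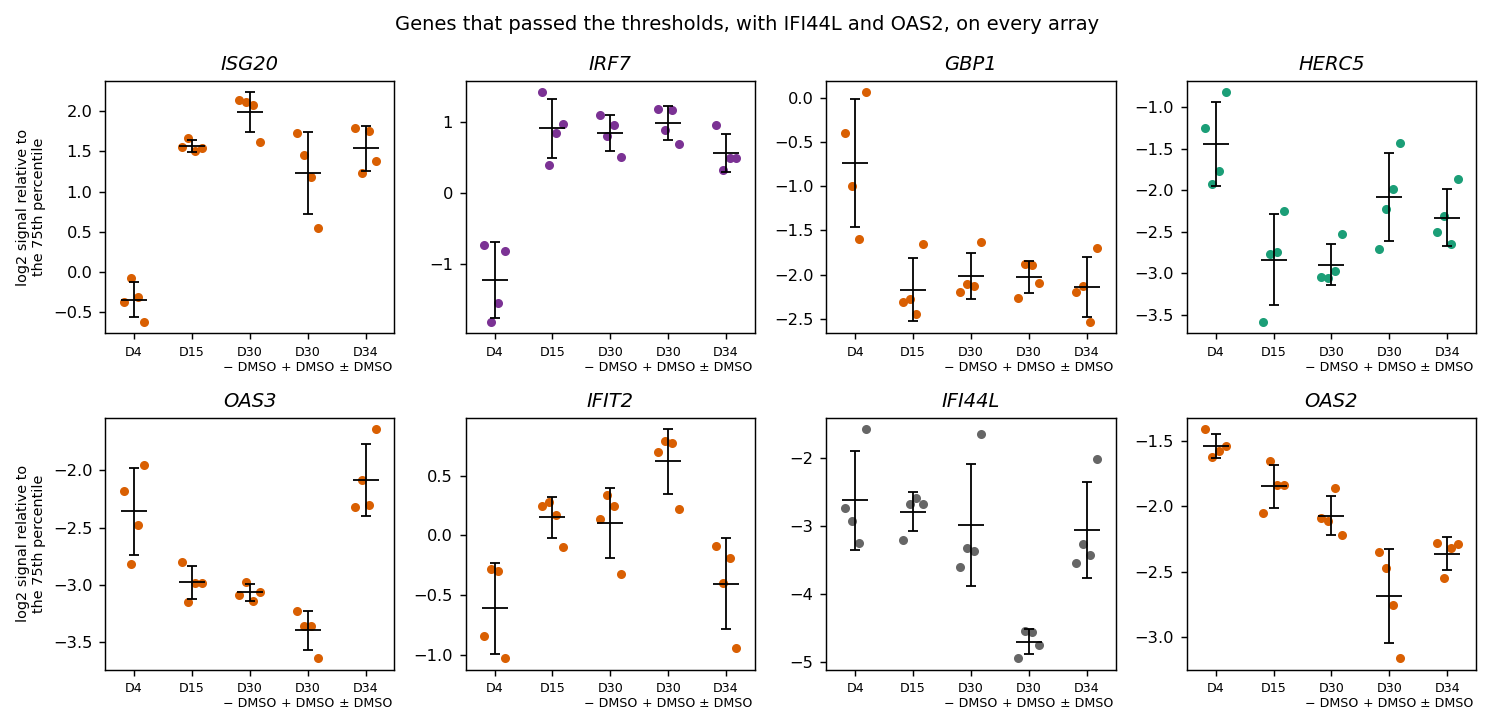
Level on every array (points, log2 relative to the 75th percentile of the array) of the 6 called genes with IFI44L and OAS2 at the 5 conditions, with bars at the mean of the 4 arrays. IRF7 and ISG20 are low at D4 alone, GBP1 and HERC5 are high at D4, and OAS3 and IFI44L are lowest at D30 + DMSO.

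In the ISG15 system, HERC5, the ligase that attaches ISG15 to new proteins, fell while ISG15 and USP18, the protease that removes it, were not called. HERC5 read -1.25, -1.92, -1.77 and -0.82 at D4, -3.58, -2.77, -2.74 and -2.25 at D15, -3.04, -3.05, -2.97 and -2.53 at D30 − DMSO, -2.7, -2.22, -1.98 and -1.43 at D30 + DMSO, and -2.5, -2.31, -2.65 and -1.86 at D34 ± DMSO. The D4 arrays lay above all D15 arrays. HERC5 fell by 1.39 ± 0.30 (SE) on the log2 scale, 2.63-fold, at D15 (limma adjusted p = 0.002), with -2.33, -1 and -1.67 within slides 2, 3 and 4. The call was lost without D4 replicate 1 (-1.33) or 4 (-1.19) or D15 replicate 1 (-1.15) or 2 (-1.41). ISG15 was -0.24 at D15 (adjusted p = 0.252) and between -0.25 and 0.31 in all comparisons, and USP18 between -0.24 and 0.28.

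Of the other interferon-induced proteins, 7 of 8 were tested and none called. IFI44L and IFI6 are given because of their values, seen beforehand. IFI44L read -2.74, -2.92, -3.25 and -1.57 at D4, -3.21, -2.67, -2.59 and -2.68 at D15, -3.61, -3.33, -3.36 and -1.64 at D30 − DMSO, -4.95, -4.55, -4.56 and -4.75 at D30 + DMSO, and -3.54, -3.27, -3.42 and -2.01 at D34 ± DMSO. All 4 D30 + DMSO arrays lay below all other arrays of the series, and D4 replicate 4, D30 − DMSO replicate 4 and D34 ± DMSO replicate 4, on 1 slide, were the highest of their conditions. IFI44L, whose product is linked to dampened antiviral responses, differed by -1.72 ± 0.42 (SE) with DMSO (limma adjusted p = 0.00625) and by 1.64 ± 0.42 after its removal (0.00732), just missing the adjusted p of 0.005 both times. With slide as a block both passed, at -1.97 (0.000222) and 1.89 (0.00019). With normexp background correction they were -0.65 (0.141) and 0.65 (0.131), and the methods' t-test gave adjusted p = 0.0544 and 0.0325. Within slides 3 and 4 the differences were -1.14 and -3.01 with DMSO, and 1.27 and 2.65 after removal. The DMSO difference passed without D4 replicate 4 or D34 ± DMSO replicate 4 (-1.72 each), and the removal difference without D4 replicate 4 or D30 − DMSO replicate 4 (1.64 each). Without D30 − DMSO replicate 4, the DMSO difference was -1.27 (adjusted p = 0.0212). IFI6, a mitochondrial protein that delays apoptosis, differed by -0.80 ± 0.16 after removal (0.00148), under the 2-fold limit. IFI35, IFI44, PARP9, SAMD9 and XAF1 reached no adjusted p below 0.05, with differences from -0.61 (IFI44 at D15) to 0.51 (IFI44 with DMSO).

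The 9 class I genes split into chains and peptide supply, and none passed the 2-fold limit in any comparison (limma, 0 of 9 called each time). The chains that reach the cell surface, B2M and HLA-B, HLA-C, HLA-E and HLA-F, were all higher with DMSO, by 0.56 to 0.71 on the log2 scale, and all lower after its removal, by log2 differences of -0.82 to -0.62. In both comparisons the 4 arrays of D30 + DMSO lay above the 4 arrays of the other condition for each of these 5 genes. How often this held over all genes was not counted. Over all 9 the median difference was 0.56 with DMSO, against 0.04 over all genes, and -0.62 after removal, against -0.07. Neither median describes the 4 peptide-supply genes, which lay between -0.48 and 0 with DMSO and between 0.27 and 0.51 after removal. The individual genes are given because of these values, seen beforehand.

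B2M read 5.45, 6.01, 5.44 and 5.73 at D4, 5.45, 5.64, 5.56 and 5.77 at D15, 5.56, 5.7, 5.54 and 5.4 at D30 − DMSO, 6.17, 6.19, 6.41 and 6.28 at D30 + DMSO, and 5.41, 5.6, 5.46 and 5.33 at D34 ± DMSO. D30 + DMSO arrays were the highest of the series, and the other 4 conditions overlapped. B2M, the invariant light chain of all class I molecules, was 0.71 ± 0.13 (SE) higher with DMSO (1.64-fold, limma adjusted p = 0.000763) and differed by -0.82 ± 0.13 after removal (0.00017). Within slides 3 and 4 the differences were 0.62 and 0.94 with DMSO, and -0.75 and -1.02 after removal. HLA-B read 6.57, 6.91, 6.98 and 6.93 at D4, 7.03, 6.96, 7.3 and 7.07 at D15, 6.8, 6.88, 6.86 and 6.78 at D30 − DMSO, 7.47, 7.35, 7.75 and 7.44 at D30 + DMSO, and 6.77, 6.55, 7 and 6.81 at D34 ± DMSO. The D30 + DMSO arrays were again above all others. HLA-B, a classical heavy chain, was 0.67 ± 0.13 higher with DMSO (1.59-fold, adjusted p = 0.00106) and differed by -0.72 after removal (0.000457), with 0.61 and 0.81, and -0.53 and -0.78, within slides 3 and 4.

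HLA-C, the other classical chain of the set, was 0.58 higher with DMSO (adjusted p = 0.00328), and HLA-E, a ligand of inhibitory receptors on natural killer cells, 0.56 higher (0.00537). HLA-F read 5.1, 5.55, 5.21 and 5.89 at D4, 5.3, 5.59, 5.8 and 5.89 at D15, 5.37, 5.33, 5.43 and 5.59 at D30 − DMSO, 5.87, 5.73, 6.26 and 6.18 at D30 + DMSO, and 5.26, 5.27, 5.07 and 5.5 at D34 ± DMSO. Its D30 + DMSO arrays lay above all D30 − DMSO and D34 ± DMSO arrays. HLA-F, a non-classical chain, was 0.58 ± 0.18 higher with DMSO (0.0294) and differed by -0.73 after removal (0.00561). A second HLA-F probe, for another transcript, differed by -0.04 with DMSO (adjusted p = 0.925) and by -0.21 after removal (0.424). A second HLA-B probe differed by 0.68 and -0.76. Class I heavy chains are near-identical paralogs and the probe sequences were not used here, so signal shared between them was not tested.

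**Figure D4:**
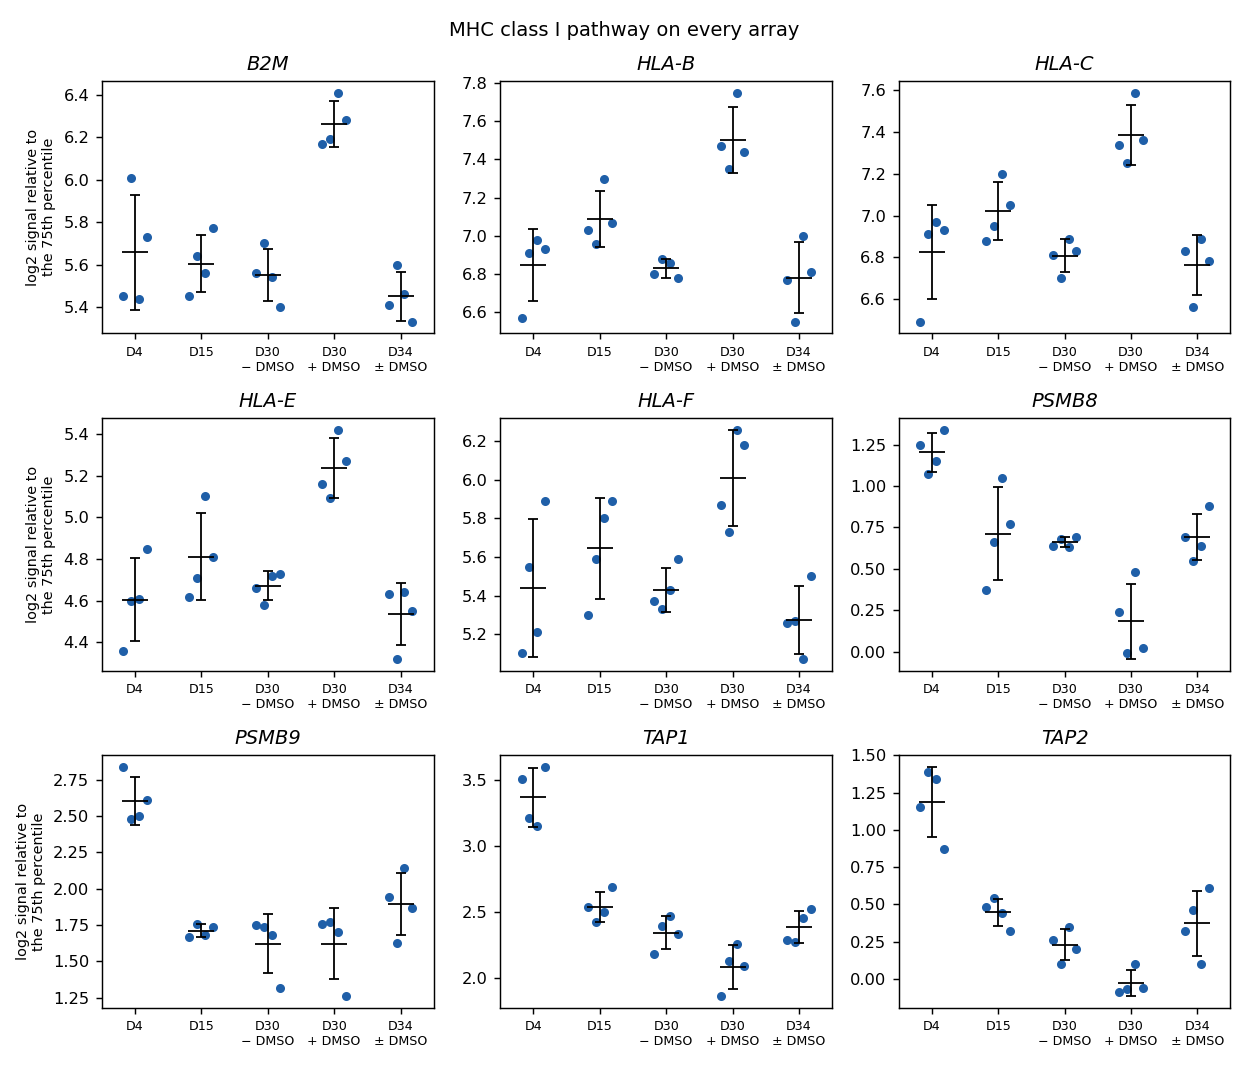
Level on every array (points, log2 relative to the 75th percentile of the array) of the 9 class I genes at the 5 conditions, with bars at the mean of the 4 arrays. B2M and the HLA genes are highest at D30 + DMSO, and PSMB8, PSMB9, TAP1 and TAP2 are highest at D4.

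The genes that supply peptides followed another course. PSMB8 and PSMB9 are the inducible subunits of the immunoproteasome, which cuts peptides for class I, and TAP1 and TAP2 form the transporter that carries them into the endoplasmic reticulum. All 4 D4 arrays lay above all other arrays for each of these 4 genes, and how often this held over all genes was not counted. TAP1 read 3.51, 3.21, 3.15 and 3.6 at D4, 2.54, 2.42, 2.5 and 2.69 at D15, 2.18, 2.39, 2.47 and 2.33 at D30 − DMSO, 1.86, 2.13, 2.26 and 2.09 at D30 + DMSO, and 2.29, 2.27, 2.45 and 2.52 at D34 ± DMSO. TAP1 differed by -0.83 ± 0.13 (SE) from D4 to D15 (limma adjusted p = 7.51e-05), under the 2-fold limit. PSMB9 read 2.84, 2.48, 2.5 and 2.61 at D4, 1.67, 1.76, 1.68 and 1.74 at D15, 1.75, 1.74, 1.68 and 1.32 at D30 − DMSO, 1.76, 1.77, 1.7 and 1.26 at D30 + DMSO, and 1.94, 1.63, 2.14 and 1.87 at D34 ± DMSO. The differences from D4 to D15 were -0.89 ± 0.15 for PSMB9 (0.000133), -0.75 for TAP2 (0.000298) and -0.49 for PSMB8 (0.0167). With DMSO the same 4 genes were not higher, PSMB8 differing by -0.48 (0.0245), TAP1 and TAP2 by -0.26 each (0.197 and 0.208) and PSMB9 by 0.00 (0.995). After removal the means of all 4 were higher, by 0.51 for PSMB8 (0.0151), 0.41 for TAP2 (0.0339), 0.30 for TAP1 (0.11) and 0.27 for PSMB9 (0.216), where those of the chains were lower.

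Ranking the 5 conditions for each gene, the highest mean lay at D4 for 15 of the 38 genes and at D30 + DMSO for 14, and the lowest at D34 ± DMSO for 12, D4 for 11 and D30 + DMSO for 10. Most neighbours in these orders had overlapping arrays. No such ranking was made over all genes, so these counts cannot be set against the whole array. For HLA-B, HLA-C and B2M the D30 + DMSO arrays stood apart from the next condition, and for PSMB8, PSMB9, TAP1 and TAP2 the D4 arrays did.

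Of 36 other interferon-stimulated genes outside the set 31 were tested. Of these, 1 was called higher and 1 lower at D15, against 5.76% and 3.67% of all genes. With DMSO 0 were higher and 3 lower, against 1.71% and 4.15%. After removal 2 were higher and 0 lower, against 4.91% and 2.09%. At D15, TNFSF10 (TRAIL, a death ligand) rose by 3.23 (adjusted p = 1.03e-06), whereas EPSTI1 fell (-1.7, 0.000263). With DMSO, 3 fell, namely PML, a nuclear-body protein (-1.33, adjusted p = 1.57e-05), CXCL10, a chemokine (-1.52, 0.0042), and EPSTI1 (-1.9, 0.000151). After removal EPSTI1 rose by 1.45 (0.00147) and TRIM22, an antiviral ubiquitin ligase, by 1.07 (6.31e-06). EPSTI1 was not well above background at D30 + DMSO. Its dim signal was therefore also raised, where lower, to the lowest signal of any probe well above background on each array. The folds were then 2.96 with DMSO and 2.17 after removal. They are not strict bounds, as the detection limit of a single probe may be higher and its fold smaller.

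Of 12 nucleic acid sensors and adaptors 9 were tested. With DMSO 0 were called higher and 2 lower, against 1.71% and 4.15% of all genes. After removal 1 was higher and 0 lower, against 4.91% and 2.09%. With DMSO, STING1, the adaptor for cytosolic DNA, fell (-1.06, adjusted p = 0.00308). IKBKE, a kinase that activates IRF3 and IRF7, differed by -1.59 with DMSO (0.000123) and by 1.52 after removal (0.000154). It was not well above background at D30 + DMSO, and with its dim signal raised in the same way the folds were 2.64 and 2.52. Of 13 further class I genes, all tested, ERAP2, a peptide-trimming enzyme, fell by 1.16 on the log2 scale at D15 (1.46e-05). With DMSO 0 of the 13 were called, and their median difference was 0.08, against 0.04 over all genes. HLA-G, chosen from them after its values were seen, was 0.84 higher with DMSO (0.00486) and differed by -0.71 after removal (0.0134). Both differences were under the 2-fold limit, and signal shared with the other class I heavy chains was not tested. Of 10 class II genes 8 were tested, and HLA-DRA, a class II alpha chain, rose by 1.7 at D15 (0.00201). At D15 5.76% of all genes were called higher and 3.67% lower.

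Other features of the cultures moved with the same comparisons. All 6 hepatocyte markers rose at D15, with a median log2 difference of 4.63, and none was called later. Their median difference was 0.46 with DMSO, the means of 5 of 6 being higher (APOA1 by 1.03, adjusted p = 0.062, and TF by 1.05, 0.0264), and -0.38 after removal, with 5 of 6 lower (APOA1 -1.41, 0.00924, and TF -0.91, 0.047). All 3 proliferation genes fell at D15 (median -2.96) and rose after DMSO removal (median 3.83), their summed linear signal, in multiples of the 75th percentile, lying between 3.3 and 4.4 at D4, 0.375 and 0.725 at D15, 0.266 and 0.538 at D30 + DMSO, and 4.47 and 6.49 at D34 ± DMSO. Of 6 immune cell markers 3 were tested, and CD68, also found in other cells, rose by 1.41 at D15 (adjusted p = 2.28e-05), while CD14, a monocyte marker that hepatocytes also express, differed by 0.68 at D15 (0.00213) and by -0.59 with DMSO (0.00853), under the 2-fold limit, and PTPRC, the pan-leukocyte marker, by 0.06 at D15 (0.956). The summed signal of CD68, CD14 and PTPRC lay between 3.06 and 4.26 at D4, 6.24 and 7.09 at D15, 7.74 and 9.78 at D30 − DMSO, 5.73 and 6.79 at D30 + DMSO, and 5.01 and 6.72 at D34 ± DMSO. CD3E was well above background on 13 arrays. SOX9, a biliary and progenitor marker, rose with DMSO (1.31) and SPP1 fell (-1.78). The part of these changes in the results above was not tested.

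Within conditions, arrays of 1 slide deviated together. After removing condition means, same-slide pairs of arrays from different conditions had a median correlation of 0.377 over all genes tested (44 pairs, lowest 0.114), against -0.167 for 116 pairs on different slides. Across the 20 arrays, which share slide and scan session, the mean correlation between 2 genes of the set was 0.08, and 0.13 with slide removed, against 0.046 and 0.029 over all genes. Within the class I pathway it was 0.211. By quantile normalization these mean correlations were 0.181 for the set, 0.395 for the class I pathway and 0.009 over all genes. The closest pairs, as a description, were PARP9 and GBP1 (0.93), HLA-B and HLA-C (0.90), HLA-C and HLA-E (0.89) and USP18 and GBP1 (0.88). The widest spread within conditions was that of IFI44L (SD 0.63), followed by IRF9 and HERC5 (0.45 each), and narrow ones were HLA-C and TAP1 (0.15 each), against a median of 0.34 over all genes.

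**Figure D5:**
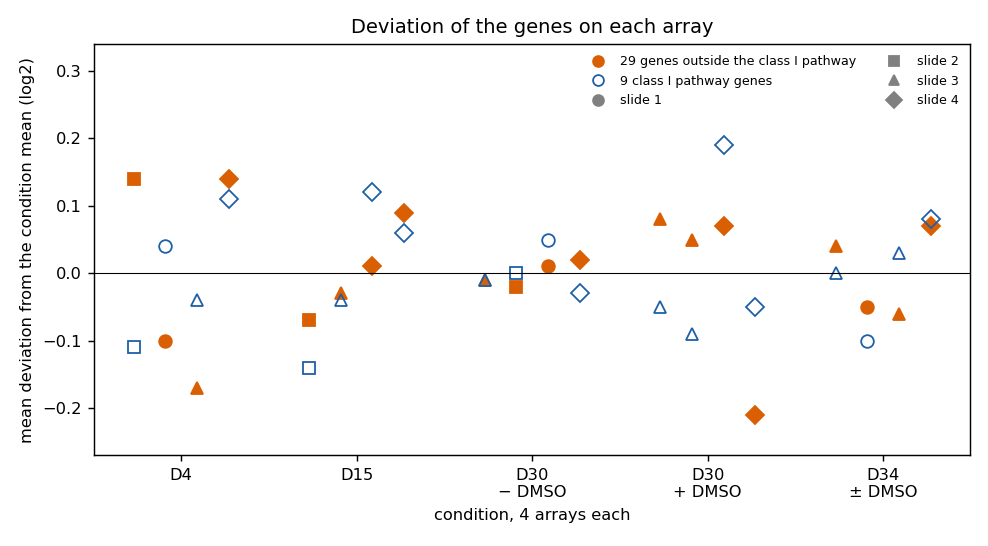
Mean deviation of the class I genes and of the other genes of the set from their condition means (log2) on each of the 20 arrays, by condition, with the marker shape giving the slide. The means over the genes of a role lie between -0.21 (D30 + DMSO replicate 4) and 0.19 (D30 + DMSO replicate 3, class I), and single genes deviated more, such as IFI44L on D30 − DMSO replicate 4 at -1.64 against a condition mean of -2.98.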

How the data were processed

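Total RNA of 20 HepaRG cultures, 4 in each of 5 conditions, had been hybridised to one-colour Agilent arrays. The authors deposited the scanner output, with an intensity per spot extracted by Agilent Feature Extraction (version 10.7.3.1 per the labels, 10.7.1.1 per the file headers), and a table of their own log2 values, set to a baseline per probe, which served as an alternative. Normalization by the authors of the intensity files beyond background subtraction is not given in the sources used here.

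From the 58717 non-control spots, processed intensities with outlier flags were left out. They were kept where every spot of a probe on an array was flagged (582 probe-array values). Spots of 1 probe were averaged, giving 42405 probes. The averages were scaled to a common 75th percentile, and scaled values below 1 were set to 1. Log2 values were then taken relative to that percentile. A probe was kept where some condition had it above the scanner's background flag on each of its 4 arrays, which held for 26538. Accessions were named through RefSeq (GRCh38.p14), which matched 24826 probes, and left 17579 unnamed. Each gene, or each unnamed accession or probe, was represented by its brightest kept probe, giving 22221 tested, called genes throughout. Fits used R 4.3.3 and limma 3.58.1, with all 20 arrays and no covariate, and the 5 contrasts and thresholds given above. The fitting code was tested on simulated data with known fold changes. The alternatives were other scaling, background correction, floors, filters, probes, blocks for slide, scan session and replicate, the methods' t-test and analysis of variance, a looser threshold and leaving out each array. Within-slide differences were added after seeing the data. Unmatched per-sample columns numbered 0.

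Arrays were grouped by their labels, and the design text calls the replicates independent experiments. The genes, roles and lists were chosen with earlier results of these data known. By the rule for named genes, values on every array are given for genes called at least once and genes whose probes disagreed, and other lists are named by their called genes, at most 5 a list, and the receptor genes. IFI44L, IFI6, the class I genes and HLA-G were added after their values were seen, and cell type markers are named from their own list. Some genes of the other lists are counted in them but not reported here by name.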

Additional observations from a re-analysis of the deposited data

Results flagged for a closer look

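For each of the 38 genes in each condition the array farthest from its 3 companions was set against Dixon's 95% critical value for 4 samples, in 190 groups. Chance flags about 1 in 20 groups, or 9.5, and 17 were flagged, 13 of them on slide 4. The groups share the same 20 arrays and are not independent, so 9.5 is only a rough guide. Slides also held unequal numbers of arrays, for which the 13 was not adjusted. D30 − DMSO replicate 4 stood apart 7 times. It was high for ISG15 (3.48, others 3.37 to 3.38), IFI6 (1.7, others 1.33 to 1.35), IFI44L (-1.64, others -3.61 to -3.33), HERC5 (-2.53, others -3.05 to -2.97) and GBP1 (-1.63, others -2.19 to -2.1), and low for ISG20 (1.62, others 2.08 to 2.14) and PSMB9 (1.32, others 1.68 to 1.75). D30 + DMSO replicate 4 was low 4 times, for IFIT2 (0.22, others 0.7 to 0.79), IFIT5 (0.13, others 0.42 to 0.47), IFI44 (-0.76, others 0.11 to 0.21) and PSMB9 (1.26, others 1.7 to 1.77). D4 replicate 4 was high for OASL (-2.35, others -2.61 to -2.58) and low for STAT2 (3.64, others 4.3 to 4.37). D15 replicate 1 was low for IFI44L (-3.21, others -2.68 to -2.59) and high for XAF1 (-0.77, others -1.82 to -1.67). D34 ± DMSO replicate 2 was low for OAS2 (-2.55, others -2.32 to -2.28), and D4 replicate 1 was low for HLA-C (6.49, others 6.91 to 6.97). All values are log2 relative to the 75th percentile of the array, and why these arrays stood apart was not tested.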

How the results depend on the processing

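There were 1174 values for single genes under an alternative, over 35 differences with an adjusted p below 0.05. Of these values, 1106 kept their direction and side of the thresholds or stayed within the replicate spread, 23 lost the call and 13 gained it. Another 31, all within-slide, moved by more than the spread, and 1 from another probe reversed, HLA-F with DMSO (-0.04). Of the within-slide values that moved, OAS1 at D15 within slide 2 (-0.14 against 0.74 over all arrays) had the opposite sign. So did IFIT5 at D15 within slide 4 (0.06 against -0.44). The counts of called genes moved more. At D15, 4 became 2 with only the arrays of the 2 conditions (IRF7 and ISG20) and 1 by the methods' t-test (ISG20). The count was 13 at an adjusted p below 0.05 without a fold limit, against 23.5% of all genes. With DMSO, 0 became 1 with slide or scan session as a block (IFI44L) and 9 at the looser threshold, against 18.3% of all genes. After removal, 2 became 1 by quantile normalization (OAS3), with only the 2 conditions or with every probe required, and 0 by normexp background correction or the t-test. At the looser threshold it was 12, against 22% of all genes. D34 ± DMSO against D30 − DMSO went from 0 to 1 with slide as a block (OAS3) and to 1 at the looser threshold, against 4.68% of all genes. The F-test's 1 became 0 with no filter, 0 by analysis of variance and 4 at the looser threshold (IRF7, ISG20, TAP1 and TAP2). Leaving out 1 array gave 3 to 4 at D15, 0 to 0 from D15 to D30 − DMSO, 0 to 1 with DMSO, 1 to 3 after removal, 0 to 1 for D34 ± DMSO against D30 − DMSO and 0 to 1 by the F-test. HERC5 at D15 was not called by quantile normalization (-1.45, adjusted p = 0.00799) or normexp (-0.90). OAS3 after removal was 0.68 by normexp, under the fold limit. The share of promoters with the element was 38.1% with the longer core, and the mean correlation within conditions was 0.181 by quantile normalization (0.395 in the class I pathway, 0.009 over all genes). The cause of these changes was not tested.

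Whether replicate numbers pair the arrays is not stated, and not every same-numbered pair correlated. Over 40 same-numbered pairs the median correlation of deviations was 0.256, the lowest -0.309, and 27 exceeded 0.1, against a median of -0.157 and 43 of 120 for pairs with other numbers. With the replicate block the counts were 1 with DMSO (IFI44L, -1.72), 3 after removal and 2 by the F-test (IRF7 and ISG20). Genes dim on some arrays rest on few probes, and spots near background limit what can be said of the interferons themselves.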
